A study of Mus musculus with 6 samples.

Results

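Immediate early genes are transcribed within minutes of a stimulus, from transcription factors that are already present in the cell, and most of their mRNAs are short-lived. A set of 10 was followed here in mouse liver: the zinc finger factor Egr1, the AP-1 subunits Fos, Jun, Junb and Jund, the early response genes Ier2 and Ier3, the MAP kinase phosphatase Dusp1, the growth regulator Myc and the Krüppel-like factor Klf6. The genes, and the related lists below, were chosen by name with earlier results of these data known. Their counts against all genes are therefore descriptions. A probe set was taken as a member's when its annotation named that gene and no other, which gave 16 probe sets for the 10 genes, out of 18193 genes with such a probe set. The brightest probe set over the 6 arrays gave the main value of each gene.

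Liver RNA came from 8-week-old male C57BL/6J mice and was measured on 6 Affymetrix expression arrays. There were 3 groups of 2 arrays, called biological replicates in the labels: fed wild-type mice on normal chow, wild-type mice deprived of food for 24 h, and Cnot3+/- mice (titled Cnot3het) deprived of food for 24 h. Fasted mice were housed individually. Cnot3 belongs to the CCR4-NOT complex, which removes poly(A) tails and so starts mRNA decay. No fed Cnot3+/- group was included, so the genotypes were compared only after fasting. The removed part of Cnot3 is not stated in the labels, and Cnot3 itself read 9.27 and 9.32 in fasted wild-type and 9.40 and 9.16 in fasted Cnot3het liver, so the genotype is given as labelled.

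Values are RMA levels on a log2 scale, where a difference of 1 is a doubling. Array medians ran from 5.59 to 5.64. Where a group lay at or under these medians, its signal may be background. A difference from it is given as "at least", unless an array of the other group also lay near or under them. Differences were tested with limma, in 1 linear model of all 6 arrays, and a gene is said to rise, fall, pass or be called at a Benjamini-Hochberg adjusted p under 0.05 over all 18193 genes. SE is limma's moderated standard error and SD is over the 2 arrays of a group. Markers of hepatocytes averaged 14.4 to 14.6 on every array, from 7 measured genes. In whole liver, a change in the number of cells of a type and a change in RNA per cell cannot be told apart. The 10 measured markers of Kupffer cells, the resident macrophages, averaged 8.63 and 8.73 in fed, 8.98 and 9.20 in fasted wild-type, and 9.74 and 9.33 in fasted Cnot3het liver, and all 10 lay above the array medians. Stellate cell markers, 5 of 6 of them above the medians, averaged 8.67 and 8.52 in fed, 8.03 and 7.96 in fasted wild-type, and 8.26 and 7.90 in fasted Cnot3het liver. After the fast in wild-type liver 3 of these 6 were called lower and 1 higher, from -2.32 to 0.61. Of all genes 3.15% were called lower and 1.87% higher. Col1a1, among the 3 called lower, lay below the array medians in every group. The 7 sinusoidal endothelial markers averaged 7.92 to 8.32 over the 6 arrays. Their fasting differences ran from -0.52 to 1.58, and 1 was called higher, against 1.87% of all genes. Of the 3 measured neutrophil markers, 2 lay above the array medians by their mean, and the list averaged 5.57 to 5.98. The part of these other cells in the results below was not tested.

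Egr1 and Fos stand at the head of this early response. Signals from growth factors, stress and hormones reach their promoters through MAP kinases acting on serum response factor and its ETS partners, and through cAMP acting on CREB. The proteins made from these genes then switch on later genes, while Dusp1 removes phosphate from MAP kinases and so limits the signal. AU-rich elements at the 3′ ends of many of these mRNAs are bound by Zfp36 proteins, which recruit the CCR4-NOT complex. In liver the group is best known from the first hours after partial hepatectomy, and it is also induced when tissue is stressed or handled.

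Egr1 showed the widest range of the 10 genes. It read 5.94 and 6.26 in fed wild-type liver, 7.64 and 9.88 in fasted wild-type liver, and 9.60 and 10.64 in fasted Cnot3het liver. All 4 fasted arrays lay above both fed arrays, and the fasted genotypes overlapped. Against the fed mean, Egr1 was 2.9-fold and 13.7-fold higher on the fasted wild-type arrays, and 11.3-fold and 23.3-fold higher on the Cnot3het arrays. Egr1 rose in fasted Cnot3het liver against fed wild-type liver by 4.02 (log2, SE 0.66), which is 16.3-fold with a 95% confidence interval from 5.52 to 47.8 (limma adjusted p = 0.0151). Only 1 of the 18193 genes had a larger positive difference in that comparison, in which 7.56% of all genes were called. It no longer passed without fed replicate 1 (adjusted p = 0.0717), without fed replicate 2 (0.0636) and without Cnot3het replicate 2 (0.0707), with differences from 3.50 to 4.18.

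In wild-type liver the fasting difference of Egr1 was 2.66 (log2, SE 0.66), or 6.31-fold with an interval from 2.14 to 18.6. It did not pass the test over all genes (limma adjusted p = 0.071), although it was the 11th largest positive difference. The SD of the fasted wild-type pair was 1.58, against 0.23 for the fed pair. Without fasted wild-type replicate 1 the difference was 3.78 and passed (adjusted p = 0.0307), whereas leaving out fasted wild-type replicate 2 gave 1.54. With the fasted arrays of both genotypes pooled against the fed arrays, a comparison added after the data were seen, the difference was 3.34 (adjusted p = 0.0141). Between the fasted genotypes Egr1 differed by 1.36 (SE 0.66, interval from -0.19 to 2.92, adjusted p = 0.863), so neither equality nor a difference of several fold was shown. Leaving out the first fasted wild-type array gave 0.24, leaving out the other 2.48, and dropping Cnot3het replicate 2 gave 0.85. None of these passed.

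**Figure D1:**
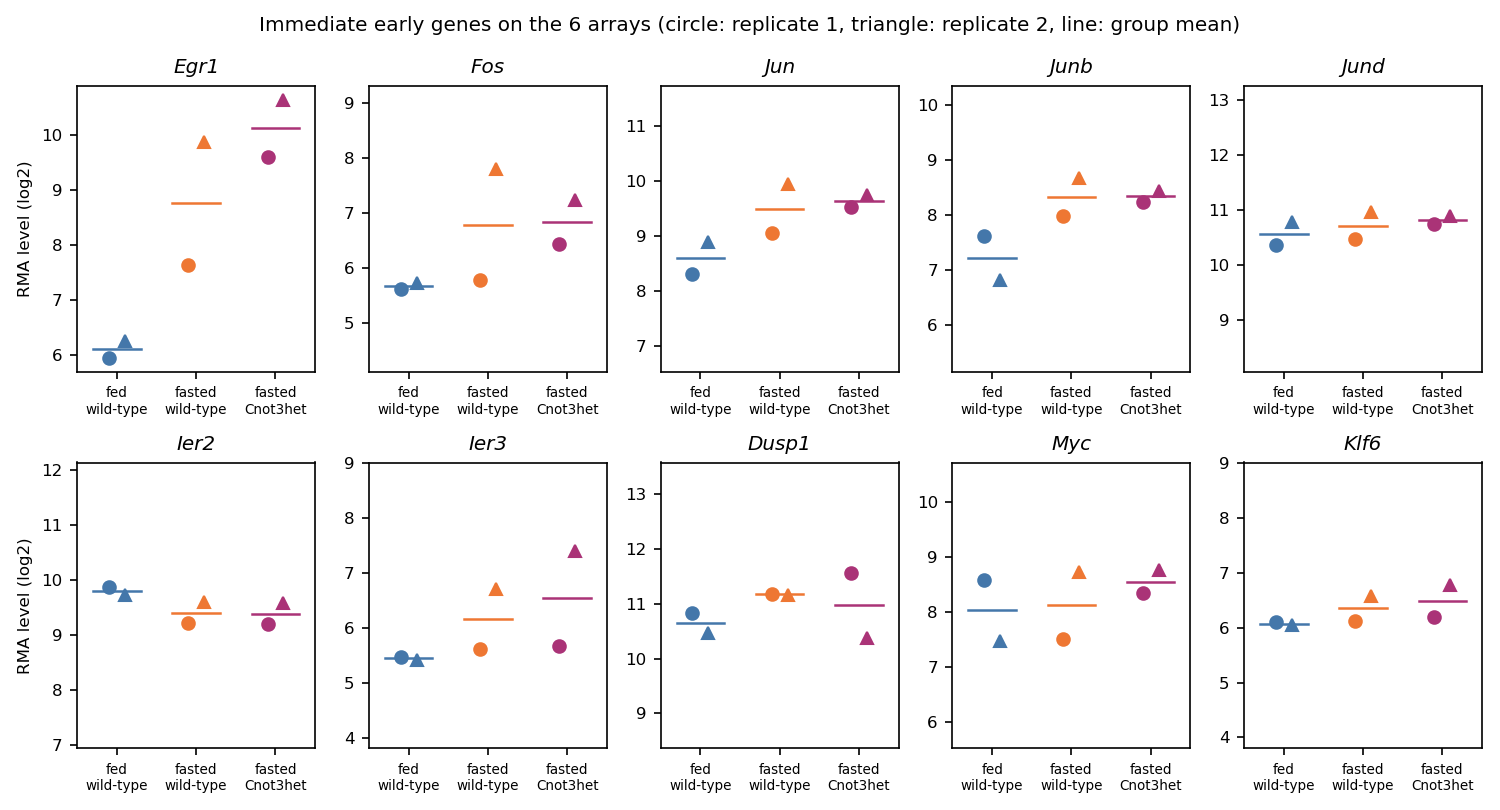
RMA level (log2) of the 10 immediate early genes on each array, by group, with every panel spanning the same number of log2 units. Circles are replicate 1, triangles replicate 2 and lines the mean of the 2 arrays. Egr1 runs from 5.94 on a fed array to 10.64 on a Cnot3het array, while Jund and Ier2 stay within a narrow band.

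The AP-1 factor is a dimer of a Fos and a Jun protein, or of 2 Jun proteins, that binds DNA through a basic leucine zipper. Fos read 5.62 and 5.71 in fed liver, close to the array medians, 5.77 and 7.79 in fasted wild-type liver, and 6.43 and 7.24 in fasted Cnot3het liver. The fasted arrays all lay above the fed arrays, but fasted wild-type replicate 1 did so by little. The log2 difference from the fed group was 1.11 in wild-type (SE 0.58, limma adjusted p = 0.369) and 1.17 in Cnot3het liver (adjusted p = 0.318), and neither passed. Without fasted wild-type replicate 2 the wild-type difference of Fos was 0.10.

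Jun, the main partner of Fos, read 8.31 and 8.89 in fed liver, 9.05 and 9.94 in fasted wild-type liver, and 9.53 and 9.74 in fasted Cnot3het liver. No fasted array overlapped the fed arrays. The log2 difference was 0.89 (SE 0.30, limma adjusted p = 0.164) in wild-type and 1.04 (SE 0.30, adjusted p = 0.0945) in Cnot3het liver. The dimmer Jun probe set read 7.05 and 7.71 in fed liver, 8.25 and 8.74 in fasted wild-type liver, and 8.18 and 8.87 in fasted Cnot3het liver. Both probe sets therefore placed every fasted array above the fed pair, with wild-type differences of 0.89 and 1.11.

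Junb, a paralogue of Jun, read 7.62 and 6.82 in fed liver, 7.98 and 8.67 in fasted wild-type liver, and 8.24 and 8.43 in fasted Cnot3het liver. Its groups did not overlap between fed and fasted, and the 2 fasted means were 8.32 and 8.34. The fasting difference in wild-type was 1.10 (log2, SE 0.30), 2.15-fold with an interval from 1.32 to 3.51 (limma adjusted p = 0.0923). The difference of Cnot3het from fed liver was 1.12 (adjusted p = 0.0741), with 1.51 without fed replicate 1, where it passed (0.0456), and 0.72 without fed replicate 2 (0.272). The wild-type difference of Junb was 0.71 without fed replicate 2, and it did not pass with any array left out. With both fasted genotypes pooled it was 1.11 (adjusted p = 0.0423).

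Jund, the Jun paralogue that resting cells usually keep expressed, had the narrowest range of the 10 genes. It read 10.35 and 10.78 in fed liver, 10.47 and 10.96 in fasted wild-type liver, and 10.75 and 10.89 in fasted Cnot3het liver. The 3 groups overlapped, and the wild-type fasting difference was 0.15 (log2, SE 0.21, interval from -0.33 to 0.63). Its dimmer probe set lay between 5.84 and 6.22 on the 6 arrays.

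The promoter windows of Fos, Jun and Junb are shown as those of the AP-1 subunits that read higher on all 4 fasted arrays, and that of Dusp1 because it alone among the 7 member windows at hand held the cAMP response sequence TGACGTCA. Each window runs from 250 bases before the gene's start to 50 bases after it, in the direction of transcription, from RefSeq on GRCm38.p6. Windows were at hand for Dusp1, Fos, Ier3, Jun, Junb, Jund and Klf6. Ier3 and Klf6, which also read higher on all 4 fasted arrays, are not shown. Capitals mark every match, on either strand, to the serum response CArG box, TGACGTCA, the AP-1 site TGACTCA, the GC box GGGCGG, the CCAAT box CCAAT or the Egr site GCGTGGGCG. Fos lies at chr12:85473640-85473939 (plus strand), Jun at chr4:95052173-95052472 (minus), Junb at chr8:84978699-84978998 (minus) and Dusp1 at chr17:26508423-26508722 (minus).
Fos: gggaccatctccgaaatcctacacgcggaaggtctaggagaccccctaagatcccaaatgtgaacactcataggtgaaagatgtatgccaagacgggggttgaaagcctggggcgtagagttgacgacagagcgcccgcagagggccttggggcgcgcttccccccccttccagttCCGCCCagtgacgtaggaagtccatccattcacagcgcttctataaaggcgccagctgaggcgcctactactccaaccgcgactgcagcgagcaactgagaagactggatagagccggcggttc
Jun: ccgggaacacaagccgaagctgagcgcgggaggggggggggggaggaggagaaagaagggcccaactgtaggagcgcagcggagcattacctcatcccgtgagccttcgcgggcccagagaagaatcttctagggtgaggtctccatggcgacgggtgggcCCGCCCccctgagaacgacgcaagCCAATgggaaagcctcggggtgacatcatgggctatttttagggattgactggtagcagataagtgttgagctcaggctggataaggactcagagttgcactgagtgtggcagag
Junb: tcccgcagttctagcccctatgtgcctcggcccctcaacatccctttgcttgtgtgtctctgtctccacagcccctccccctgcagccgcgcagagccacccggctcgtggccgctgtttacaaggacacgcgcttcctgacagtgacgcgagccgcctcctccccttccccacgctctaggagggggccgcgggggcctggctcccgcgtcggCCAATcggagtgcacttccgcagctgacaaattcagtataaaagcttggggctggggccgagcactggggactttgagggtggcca
Dusp1: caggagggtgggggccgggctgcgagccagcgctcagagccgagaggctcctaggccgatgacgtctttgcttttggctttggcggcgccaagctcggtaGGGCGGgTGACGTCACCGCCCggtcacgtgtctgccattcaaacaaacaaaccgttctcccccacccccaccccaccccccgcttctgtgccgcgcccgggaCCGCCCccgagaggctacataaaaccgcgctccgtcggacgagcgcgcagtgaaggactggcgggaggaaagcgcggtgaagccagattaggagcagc

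In these windows, the GC box of Fos began 74 bases before the start, and that of Jun 89 bases before it. Jun and Junb held a CCAAT box, 65 and 36 bases before the start. In Dusp1 the TGACGTCA began 143 bases before the start and stood between 2 GC boxes that began at 150 and 135. Over all 32851 RefSeq windows of this length, 1.79% held TGACGTCA, 35.7% a GC box and 37.4% a CCAAT box. The CArG box (1.63% of all windows), TGACTCA (5.2%) and GCGTGGGCG (0.612%) had no match in the 7 member windows, which says only that these letters are not in these 300 bases. These matches are descriptions of sequence and were not tested for binding.

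Ier2, a small nuclear protein of the early response, was the only member that read lower after fasting. It read 9.88 and 9.72 in fed liver, 9.22 and 9.60 in fasted wild-type liver, and 9.20 and 9.58 in fasted Cnot3het liver. All 4 fasted arrays lay below both fed arrays. The log2 difference was -0.39 (SE 0.18, limma adjusted p = 0.314) in wild-type and -0.41 (SE 0.18, adjusted p = 0.26) in Cnot3het liver, neither past the test.

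Ier3, a stress response protein that acts on cell survival, read 5.47 and 5.41 on the fed arrays, below the array medians. It read 5.61 and 6.71 in fasted wild-type and 5.67 and 7.40 in fasted Cnot3het liver. In each fasted group the array numbered 1 stayed near the array medians and the array numbered 2 stood clear of them. The log2 difference from fed liver was 0.72 in wild-type (limma adjusted p = 0.561) and 1.10 in Cnot3het liver (limma adjusted p = 0.32). Neither is a lower bound, as replicate 1 of each fasted group also lay near the array medians. Without Cnot3het replicate 1 the Cnot3het difference was at least 1.96. Without Cnot3het replicate 2 it was 0.23, which is not a lower bound, as both sides then lay near the array medians.

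Dusp1, which inactivates MAP kinases, read 10.83 and 10.46 in fed liver, 11.17 and 11.16 in fasted wild-type liver, and 11.56 and 10.38 in fasted Cnot3het liver. The fasted wild-type pair was nearly identical and lay above the fed pair, whereas the Cnot3het pair spread from below the fed arrays to above all others. The wild-type fasting difference was 0.53 (log2, SE 0.34, limma adjusted p = 0.483), and the Cnot3het arrays differed from the fasted wild-type arrays by -0.20 (SE 0.34, adjusted p = 0.946).

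Myc, which drives growth and ribosome production as a dimer with Max, read 8.58 and 7.47 in fed liver, 7.51 and 8.72 in fasted wild-type liver, and 8.34 and 8.76 in fasted Cnot3het liver. The fed and fasted wild-type pairs covered almost the same range, and the difference between their means was 0.09 (log2, SE 0.46, interval from -0.99 to 1.17). The Cnot3het pair lay within the range of the other arrays at its lower value and just above it at its higher value.

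Klf6, a zinc finger factor induced in injured liver, read 6.10 and 6.04 in fed liver, 6.13 and 6.57 in fasted wild-type liver, and 6.19 and 6.77 in fasted Cnot3het liver. Its fasted arrays lay above the fed arrays, by little on the arrays numbered 1. The wild-type difference was 0.28 (log2, SE 0.22, limma adjusted p = 0.581). The 3 next dimmer probe sets had fed means below the array medians and gave wild-type differences of 0.35, 0.59 and 0.77. Fasted wild-type replicate 1 also lay below the medians on all 3, so these differences are not lower bounds. For the 0.35 and the 0.59, fasted wild-type replicate 1, at 5.36 and 5.08, lay below fed replicate 1, at 5.66 and 5.42. The probe set with the 0.77 read 5.13 and 5.19 in fed liver and 5.31 and 6.56 in fasted wild-type liver. On these 3 probe sets Cnot3het replicate 1 read 5.55, 5.69 and 5.19, and both fasted arrays numbered 2 read between 6.32 and 6.56. The last probe set lay far below the medians on every array.

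Across the 10 genes, limma called 0 for the 24 h fast in wild-type liver at an adjusted p under 0.05, where 5.02% of all genes were called. Egr1, Jun and Junb had an unadjusted p under 0.05, against 18.9% of all genes. The log2 difference was positive for 9 of the 10 and for 54.7% of all genes, with a median of 0.62, while the median over all genes was 0.02. The fasted wild-type arrays lay wholly above the fed arrays for 7 genes and wholly below for 1, compared with 27.1% and 23.7% of all genes. Without fasted wild-type replicate 1, 1 member passed, Egr1.

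In fasted Cnot3het against fed wild-type liver, 1 of the 10 genes was called, Egr1, against 7.56% of all genes. The median difference was 0.78, against 0.00 over all genes. This comparison shares the fed arrays with the wild-type fasting comparison, so the 2 are not independent. The number called was 1 without fed replicate 1, where it was Junb and not Egr1. It was 0 without fed replicate 2 and without Cnot3het replicate 2, and 2 (Egr1 and Ier3) without Cnot3het replicate 1. Taking both genotypes, all 4 fasted arrays lay above both fed arrays for Egr1, Fos, Jun, Junb, Ier3 and Klf6, which is 6 of 10 against 16.2% of all genes, and below them for Ier2, against 15.5%.

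Between fasted Cnot3het and fasted wild-type liver, limma called 0 of the 10 genes and 0.0% of all 18193 genes. None of the 10 had an unadjusted p under 0.05, compared with 5.56% of all genes. The main values of all 10 genes overlapped between the genotypes, and the share of all genes that did so is not given here. The dimmer Jund probe set did not overlap, at 5.98 and 6.22 in fasted wild-type and 5.84 and 5.93 in fasted Cnot3het liver. The median difference was 0.12, with 8 of 10 positive, against 49.6% of all genes. The intervals stayed wide: for Fos the difference was 0.06, with an interval from -1.31 to 1.42. The group means ran from fed through fasted wild-type to fasted Cnot3het in rising order for 8 genes and in falling order for Ier2, and for Dusp1 the fasted wild-type mean was highest. The step from fed to fasted wild-type and the step between the genotypes did not pass the test for any of these genes. The genotype step was as small as 0.01 for Junb. Among the 8, its sign held with each array left out in turn only for Egr1. The share of all genes in such an order is not given here.

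**Figure D2:**
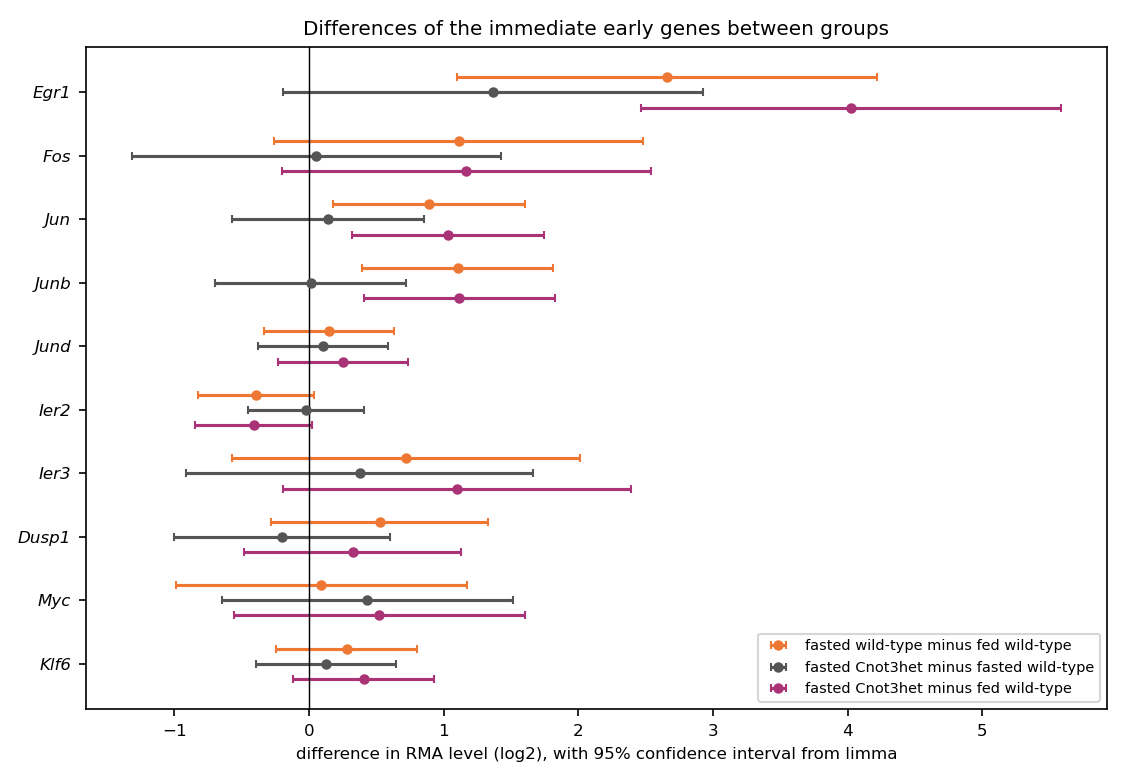
Differences in RMA level (log2) between groups for the 10 genes, as points with 95% confidence intervals from limma. Orange is fasted minus fed wild-type, grey fasted Cnot3het minus fasted wild-type and purple fasted Cnot3het minus fed wild-type. The Egr1 points at 2.66, 1.36 and 4.02 are the farthest to the right in each comparison, and only the 4.02 passed the test over all genes.

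The arrays of a fasted group differed from each other more than the fed arrays did for several of these genes. On the fasted wild-type array numbered 2, 9 of the 10 genes read higher than on the array numbered 1, with a median gap of 0.79 (log2), while 54.3% of all genes did, with a median of 0.02. For Cnot3het liver the count was again 9 of 10, with a median gap of 0.40, against 56.4% of all genes and a median of 0.04. In the fed group it was 4 of 10, with a median of -0.06, against 50.9%. Dusp1 was the exception in both fasted groups.

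The gap between the fasted wild-type arrays was 2.24 for Egr1 and 2.02 for Fos, the 3rd and 8th largest of all 18193 genes in that direction. It was 1.22 for Myc, 1.10 for Ier3 and 0.89 for Jun. Between the Cnot3het arrays it was 1.73 for Ier3, 1.04 for Egr1 and 0.81 for Fos, and -1.18 for Dusp1. The arrays numbered 2 are separate biological samples, and the labels do not tie them to each other.

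RNA quality readings also differed between the arrays of the fasted pairs. The gap, as the 3′ minus the 5′ level of a control transcript, is a reading used to judge RNA integrity. It was lower on the array numbered 2 than on the array numbered 1 in both fasted groups, for all 4 controls. For Gapdh in fasted wild-type liver the lower value was negative and larger in size. On replicates 1 and 2 of fasted wild-type liver it read -0.02 and -0.14 (log2) for Gapdh, 0.58 and 0.43 for Actb, 1.98 and 1.74 for the transferrin receptor, and 2.67 and 1.87 for pyruvate carboxylase. In fasted Cnot3het liver the same gaps were 0.31 and 0.06, 1.06 and 0.53, 2.12 and 2.08, and 4.12 and 2.81. The fed arrays were closer to each other than either fasted pair for Gapdh (-0.02 and 0.001), Actb (0.61 and 0.62) and pyruvate carboxylase (3.29 and 3.25). For the transferrin receptor they read 2.24 and 2.10, farther apart than the Cnot3het pair. The part of these readings in the gaps of the immediate early genes was not tested.

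**Figure D3:**
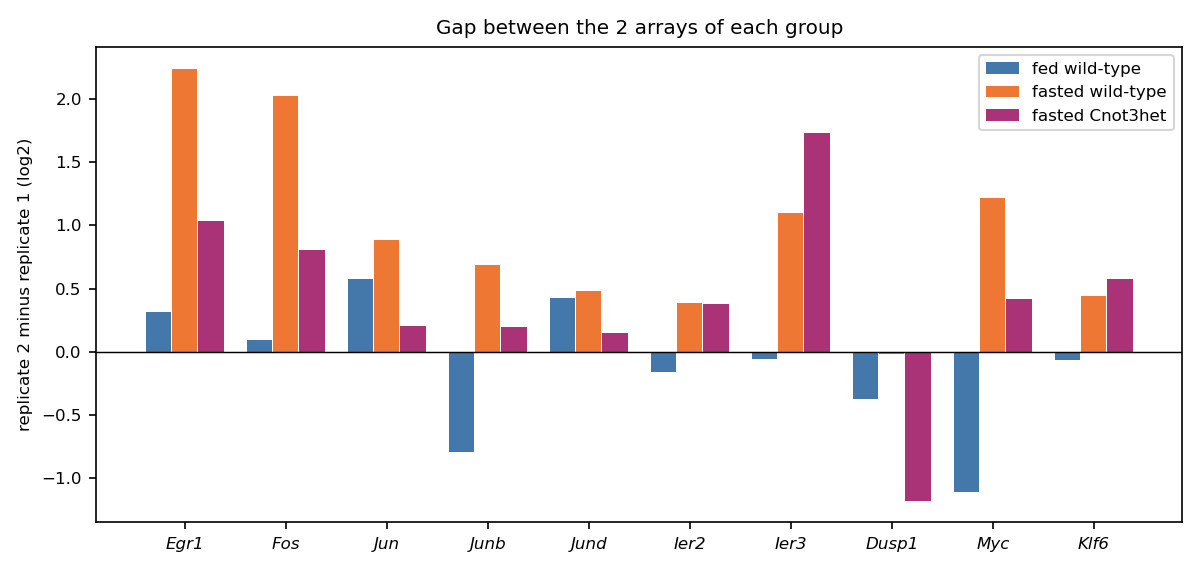
RMA level of replicate 2 minus that of replicate 1 (log2) in each group, as bars from 0, for the 10 genes. In both fasted groups 9 of 10 bars point up, to 2.24 for Egr1 and 2.02 for Fos in wild-type, while in the fed group 4 of 10 do.

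The genes whose pattern over the 6 arrays was nearest to that of Egr1 were found by the root mean squared difference of levels centred on each gene's mean, among 8863 named genes brighter than the median gene (6.74). They were Ly6d (0.58), Cgref1 (0.59), Rab30 (0.71), Nipal1 (0.74), Defb1 (0.76) and Btg2 (0.77). Brightness was the mean over all 6 arrays, so a gene low in fed liver could pass through its fasted arrays. Ly6d, Cgref1, Nipal1 and Defb1 read under 6.74 on both fed arrays, from 5.04 to 6.13. The nearest of the other members was Fos, at 1.17, and the farthest Ier2, at 1.94. As these 6 genes were picked on the same 6 arrays, a pattern shared with Egr1 follows from the choice and is no separate support. Cgref1 read 5.86 and 5.87 in fed liver, 8.19 and 9.45 in fasted wild-type liver, and 8.24 and 9.85 in fasted Cnot3het liver. Btg2, an antiproliferative gene of the early response, read 8.28 and 8.74, then 9.48 and 10.50, then 10.77 and 11.22. Btg2 was the only one of the 6 whose Cnot3het arrays both lay above both fasted wild-type arrays.

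**Figure D4:**
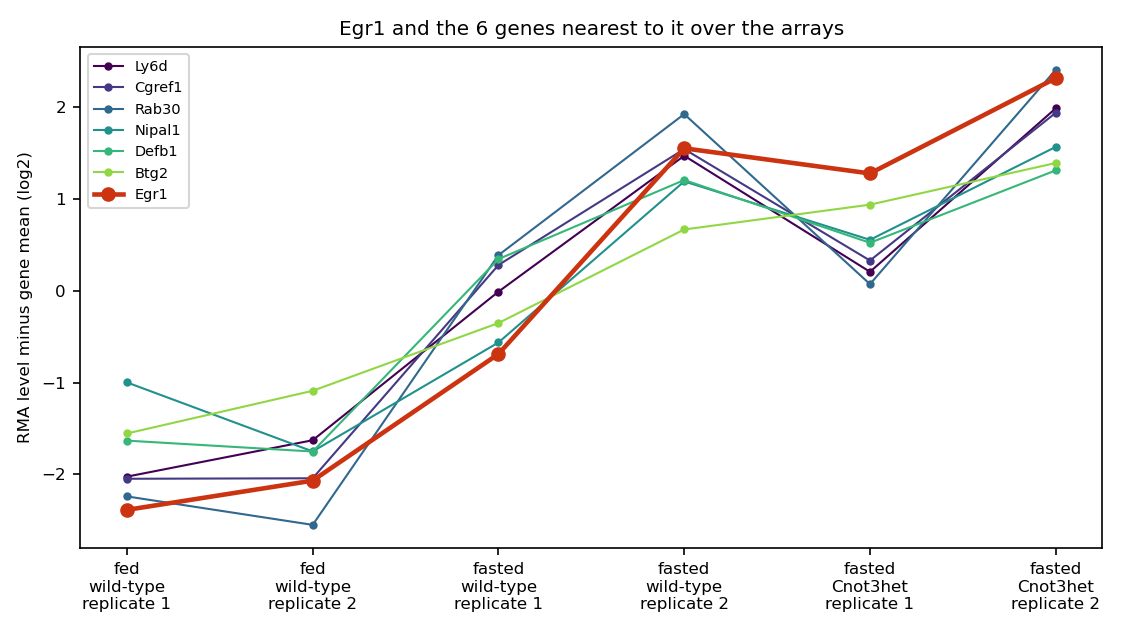
RMA level minus the gene's own mean over the 6 arrays (log2) for Egr1 (thick red) and the 6 genes nearest to it by root mean squared difference, from 0.58 for Ly6d to 0.77 for Btg2. Lines only join the values of a gene. All 7 genes are lowest on the fed arrays, and in both fasted groups the array numbered 2 is the higher. The 6 genes were picked for likeness to Egr1 on these same arrays, so the shared pattern follows from the choice.

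Of 29 other immediate early genes, 5 rose and 1 fell after the fast in wild-type liver, where 1.87% of all genes rose and 3.15% fell. The median difference was 0.51 (log2). As the list was chosen with earlier results of these data known, its counts describe it and are no separate support. Ccn2, a matrix protein gene, rose most, from 7.13 and 6.28 to 8.92 and 9.08 (2.29, SE 0.26, limma adjusted p = 0.00583). The mRNA decay factors Zfp36 and Zfp36l2 rose by 0.96 (SE 0.15) and 1.25 (SE 0.22), and the transcription factor gene Cebpd by 2.23 (SE 0.42). Gadd45b (1.95, SE 0.40) rose and Nfkbiz (-0.57, SE 0.12) fell, and these last 2 are named after their values were seen. In fasted Cnot3het against fed liver 6 of the 29 rose and 0 fell, against 3.88% and 3.68% of all genes. Among the 6 were Ccn2 (2.41), Btg2 (2.49), Cebpd (2.64) and the growth arrest gene Gadd45g (2.97). Between the fasted genotypes 0 passed in limma, and the smallest p values belonged to Btg2, with a difference of 1.01 (SE 0.34, adjusted p = 0.863), and Zfp36, with -0.39 (SE 0.15, adjusted p = 0.863).

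Among 13 other AP-1 and related leucine zipper genes, 1 rose after fasting in wild-type liver, Mafk, a small Maf protein without an activation domain, by 0.54 (SE 0.12, limma adjusted p = 0.0483). Of all genes 1.87% rose, and the median of the list was 0.21. Mafk (0.60) and Maff (1.03, SE 0.22, limma adjusted p = 0.0374) rose in Cnot3het against fed liver, where 3.88% of all genes rose. The wild-type difference of Maff was 0.91 (adjusted p = 0.0699). Of 15 other Egr, Klf and Nr4a genes, 1 rose in wild-type liver, again against 1.87% of all genes: Klf11, by 1.13 (SE 0.22, adjusted p = 0.0351). The list median was 0.22. Klf9, a glucocorticoid-induced factor, rose by 1.01 (SE 0.24, adjusted p = 0.0464) in Cnot3het against fed liver, and its wild-type difference was 1.03 (adjusted p = 0.055). Klf10 had the smallest genotype p of that list, at 8.93 and 9.15 in fasted wild-type and 7.66 and 8.49 in fasted Cnot3het liver (-0.97, SE 0.25, adjusted p = 0.863).

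The kinases and factors that feed these promoters had a median fasting difference of -0.14 over 20 measured genes of 26, with 6 positive, and 1 of them fell, where 3.15% of all genes did. Elk3, an ETS partner of serum response factor, fell from 7.18 and 7.07 to 6.27 and 6.47 in wild-type liver (-0.75, SE 0.14, limma adjusted p = 0.028). It stood at 5.78 and 5.99 in fasted Cnot3het liver, 1.24 below the fed group (limma adjusted p = 0.00403). In that comparison the kinase gene Braf rose by 0.75 (SE 0.15, limma adjusted p = 0.0266). Of all genes, 3.88% rose and 3.68% fell there. Of 11 other dual-specificity phosphatases, Dusp14 fell, from 6.79 and 7.10 to 5.78 and 5.83 (-1.14, SE 0.24, adjusted p = 0.0402). It was the only one called, against 5.02% of all genes, and the list median was -0.01.

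Among 10 partners and relatives of Myc, 1 was called, against 5.02% of all genes. Mycl, a paralogue of Myc, rose from 7.52 and 7.64 to 8.96 and 9.25 in wild-type liver (1.53, SE 0.15, limma adjusted p = 0.00355). It read 8.95 and 9.12 in fasted Cnot3het liver. Myc itself, by contrast, had overlapping groups, although the difference between the 2 genes' responses was not tested. Of 18 Myc-responsive growth genes, 1 rose, the lactate dehydrogenase gene Ldha (0.95, SE 0.12), against 1.87% of all genes. Against 3.15% of all genes, 2 fell, the pyrimidine synthesis gene Cad (-1.03, SE 0.20, adjusted p = 0.0352) and the cyclin gene Ccnd2 (-0.68, SE 0.14, adjusted p = 0.0397), with a list median of 0.03.

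**Figure D5:**
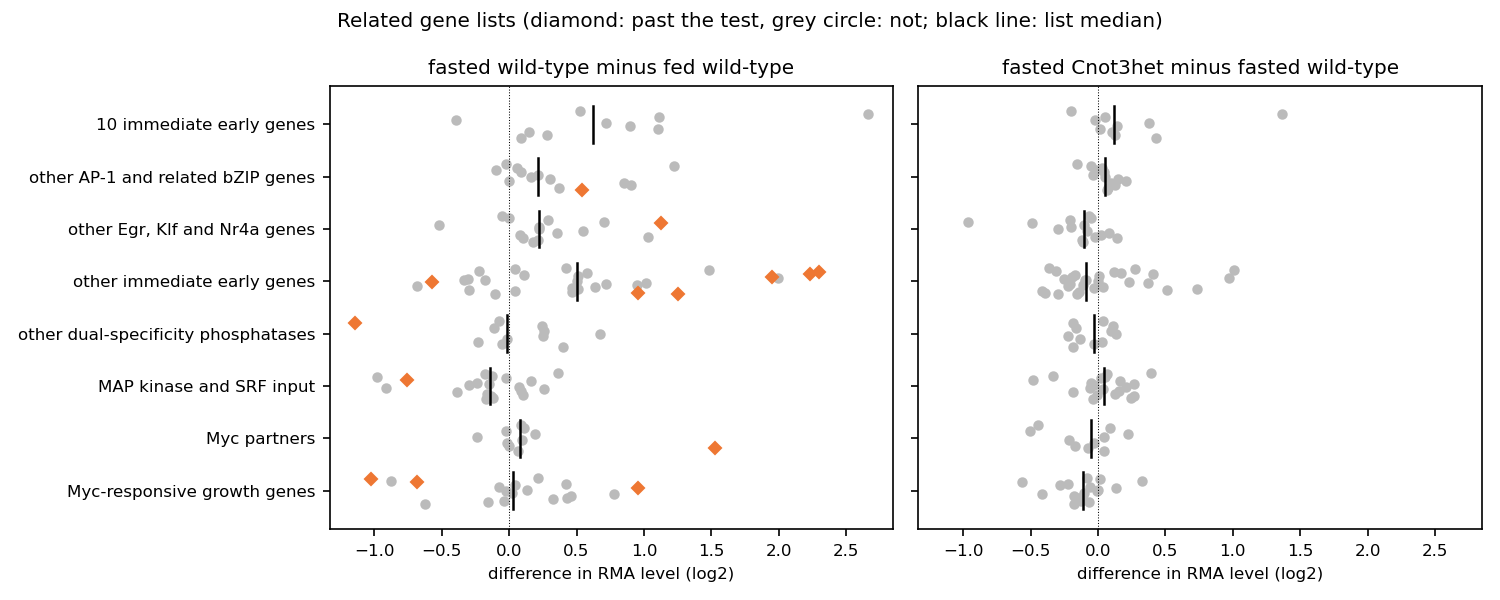
Differences in RMA level (log2) for the 10 immediate early genes and 7 lists of related genes, after fasting in wild-type liver (left) and between the fasted genotypes (right). Diamonds passed limma's test over all genes, grey circles did not, and black lines are list medians. The 10 genes and the other immediate early genes have the highest medians on the left (0.62 and 0.51), and no gene passed on the right.

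Most of these calls were lost in some fit with an array left out. Such a fit has fewer arrays, so a lost call does not show that it leaned on the array removed. The share of all called genes that kept their call in every such fit is not given here. Over the 7 lists, 14 genes were called for the fast in wild-type liver, and Mycl was the only one called with each of the 6 arrays left out in turn. Of the 16 called in Cnot3het against fed liver, 6 were called each time: Btg2, Ccn2, Ccnd2, Elk3, Ldha and Mycl.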

How the data were processed

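The authors deposited log2 values from RMA; the tool comes from the submitters' processing notes, without a version. According to the labels' protocols, total RNA was extracted with ISOGEN, purified with an RNeasy kit and turned into biotin-labelled cRNA. RMA normalises arrays to a shared distribution, so levels are relative within an array. The values were used as deposited.

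Of 45101 probe sets, 64 are controls, 34945 name 1 gene, 932 several and 9160 none here. Names come from the platform annotation, updated through Entrez IDs (18032 of 18193 genes found in RefSeq, GRCm38.p6). The members and lists were chosen with earlier results of these data known. Named genes are the members, Cnot3, and in each list the genes called, up to 4 by smallest p, or the 2 with the smallest p where none was called.

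Limma 3.58.1 on R 4.3.3 fitted all 6 arrays with 3 group means (residual df 3, prior df 4.24), with Benjamini-Hochberg adjustment over all genes and calls at 0.05. The script was tested on simulated data. The number of arrays limits the precision of every value. Alternatives were a variance trend, cyclic loess, median centring, brighter genes only, other probe set choices, a replicate block and each array left out. Figures used matplotlib 3.10.9 on Python 3.11.15. Array positions and scan times were not analysed here.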

Additional observations from a re-analysis of the deposited data

How the results depend on the processing

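With single arrays left out, the number of genes called ran from 137 to 1033 for fasting (913 with all arrays), from 597 to 929 for Cnot3het against fed (1375) and from 0 to 2 for genotype (0), and the number of members called from 0 to 1, from 0 to 2 and 0. A group left with 1 array is assumed to vary like the others. With both fasted genotypes together against fed, an alternative chosen after seeing the data, 1728 genes and 2 members (Egr1 and Junb) were called. With the replicate number as a block, 2 members were called for fasting (Egr1, adjusted p = 0.0175, and Jun, 0.0362) and 2 for Cnot3het against fed (Egr1 and Jun, 0.0187), with 1206 and 1708 genes in all. The gap between replicates correlated at 0.454 between the fasted groups over genes, but at 0.045 and -0.009 with the fed group, and the labels state no pairing, so these samples share only a number. The variance trend, cyclic loess, median centring, brighter genes only and both other probe set choices left the count of members called at 0 for fasting, 1 (Egr1) for Cnot3het against fed and 0 for genotype. Brighter genes only dropped Fos, Ier3 and Klf6.

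Directions of uncalled differences changed as follows. Between genotypes Junb was -0.031 after cyclic loess and Jund -0.056 with the mean over probe sets. With single arrays left out, the genotype difference ran from -0.79 to 0.39 for Dusp1, -0.95 to 1.07 for Fos, -0.21 to 0.17 for Ier2, -0.49 to 1.24 for Ier3, -0.30 to 0.59 for Jun, -0.33 to 0.36 for Junb, -0.14 to 0.35 for Jund, -0.16 to 0.42 for Klf6 and -0.18 to 1.04 for Myc. The fasting difference ran from -0.094 to 0.39 for Jund and -0.52 to 0.70 for Myc, and that of Cnot3het against fed from -0.26 to 0.91 for Dusp1 and -0.032 to 1.08 for Myc. The cause was not tested. Fos and Ier3 lie near the array medians in fed liver, which limits their differences.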

Other observations

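Of the 10 measured Kupffer cell and macrophage markers, 0 were called by limma after the fast in wild-type liver and 3 had an unadjusted p under 0.05, against 18.9% of all genes. All 10 differences were positive (median 0.36, log2), against 54.7% of all genes. In fasted Cnot3het against fed liver 4 of the 10 were called higher, against 3.88% of all genes, with a list median of 0.77. These 4, named after their values were seen, were the scavenger receptor Marco (1.65, SE 0.24, adjusted p = 0.00986), the complement receptor Vsig4 (0.75), and the complement genes C1qa (0.84) and C1qb (1.03). Between the fasted genotypes all 10 differences were positive (median 0.47), against 49.6% of all genes, and 0 passed limma's test, while 5 had an unadjusted p under 0.05, against 5.56% of all genes. In fasted wild-type liver 6 of the 10 were higher on the array numbered 2 and 4 were lower, and in fasted Cnot3het liver 9 were lower there and 1, Cd68, was higher.

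Among the 6 stellate cell markers, after the fast in wild-type liver the collagen gene Col3a1 fell from 9.73 and 9.51 to 7.34 and 7.26 (-2.32, SE 0.34, limma adjusted p = 0.0125). Lrat, which esterifies retinol, fell from a mean of 8.64 to 7.44 (limma adjusted p = 0.00497), and the proteoglycan gene Dcn rose by 0.61. Col1a1 also fell, but lay below the array medians in every group. The endothelial hyaluronan receptor Lyve1 rose by 1.58 (SE 0.17, limma adjusted p = 0.00456). These genes too are named after their values were seen.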
